A study of Mus musculus with 6 samples.

Results

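The mir-148a, mir-148b and mir-152 precursors give rise to 1 family of miRNAs with a common seed, and their levels were examined in mouse retina with and without the miRNA-processing enzyme Dicer1 in rod photoreceptors. The family was taken by name from a deposited table of miRNA precursors, and its 3 members, listed as mmu-mir-148a, mmu-mir-148b and mmu-mir-152, stand among 855 precursors, of which 461 had a mean of at least 10 RPKM (a read count per length of hairpin and per size of library) and were tested. All mice were 4 weeks old, of a mixed C57BL/6J - SJL background, and carried Dicerfl/fl, the floxed Dicer1 alleles, on both chromosomes. Control retinas lacked the iCre75 transgene (Dicerfl/fl, iCre75-) and cKO retinas had it (Dicerfl/fl, iCre75+). Its Cre recombinase is made in rods, so the other retinal cells keep Dicer1. There were 3 small RNA libraries per genotype, each from a pool of 6 retinas from mice that the labels do not name; as nothing ties a pool to separate litters, p-values measure the spread between these pools.

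Dicer cuts a hairpin precursor into a short duplex, and 1 arm of the duplex is loaded into an Argonaute protein, where its seed pairs with target mRNAs. In this family the 3p arm is the usual guide. In human cells it is known to act on the mRNAs of DNA methyltransferases such as DNMT1 and DNMT3B, which place and maintain methyl groups on cytosines, and mir-152 and mir-148a are known as genes that are themselves silenced by methylation in tumours. Since the retina holds many cell types and only rods lose Dicer1, a change in whole-retina RNA cannot tell fewer cells of a type from less RNA per cell.

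The 3p arms are shown first because their likeness decides which values can be read apart. The RefSeq sequences (GRCm38.p6), found for all 3 members, are written 5′ to 3′ with the seed, bases 2 to 8, in capitals:
miR-148a-3p: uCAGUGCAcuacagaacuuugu
miR-148b-3p: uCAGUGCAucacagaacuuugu
miR-152-3p: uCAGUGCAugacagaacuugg
The seed CAGUGCA was the same in all 3. Counted from 1 at the 5′ end, miR-148a-3p and miR-148b-3p differed at 2 of 22 bases, the neighbouring changes C9U and U10C. Over 21 bases miR-148b-3p and miR-152-3p differed at 2, C10G and U20G, and miR-148a-3p and miR-152-3p at 3, C9U, U10G and U20G. No other mature mouse miRNA in the RefSeq table had this seed, and no hairpin of the other listed precursors matched to RefSeq, 639 in all with the members, lay within 2 mismatches of a member's arm over 20 bases.

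The 5p arms, the partner strands of the same duplexes, were less alike and are shown for that contrast, again with bases 2 to 8 in capitals:
miR-148a-5p: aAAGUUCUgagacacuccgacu
miR-148b-5p: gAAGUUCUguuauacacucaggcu
miR-152-5p: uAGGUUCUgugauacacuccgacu
Here miR-148a-5p and miR-148b-5p had the same seed and differed at 9 of 22 bases, and miR-152-5p had another seed. Each deposited value is for a whole precursor, so reads of its 3p and 5p arms were not separated.

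The hairpins are given with the 3p arm in capitals, because the values are divided by their lengths of 99, 97 and 73 bases:
mir-148a: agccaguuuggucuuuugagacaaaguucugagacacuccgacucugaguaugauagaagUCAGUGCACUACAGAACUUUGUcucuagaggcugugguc
mir-148b: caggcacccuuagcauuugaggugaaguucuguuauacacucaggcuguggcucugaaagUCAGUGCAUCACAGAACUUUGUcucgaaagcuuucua
mir-152: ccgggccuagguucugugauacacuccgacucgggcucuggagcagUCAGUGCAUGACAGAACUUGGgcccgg
In GRCm38.p6, which is not the mm9 build named in the submitters' processing notes, mir-148a lies at chr6:51269812-51269910 on the minus strand and overlaps no other gene in GENCODE vM21. The other members lie within introns of a pair of paralogous genes and on the same strand as their hosts: mir-148b at chr15:103285125-103285221 in Copz1, and mir-152 at chr11:96850393-96850465 in Copz2. Both host genes encode zeta subunits of the COPI coat, which covers vesicles that travel between the Golgi and the endoplasmic reticulum.

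Before levels were compared, the whole reads behind the values were worked out to see which members are separate measurements. The library totals obtained with them were 6894116 to 7478237 reads in control and 5480940 to 6925715 reads in cKO retina. Reads summed over all precursors came to 1.55 to 1.56 times these totals in control and 1.77 to 1.86 times in cKO retina. Some reads were therefore counted at more than 1 precursor. In control 1 to 3, mir-148a held 5955, 5728 and 7037 reads and mir-148b held 6067, 5663 and 6985 reads. In cKO 1 to 3, mir-148a held 12379, 11641 and 9360 reads and mir-148b held 12626, 11530 and 9226 reads. Within each library the smaller of the pair was 98.0% to 99.3% of the larger. Their difference of 52 to 247 reads was 0.439 to 1.56 times the counting SD that would apply if they were separate sets of reads.

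The member mir-152 was far lower, with 79, 103 and 118 reads in control 1 to 3 and 160, 223 and 159 reads in cKO 1 to 3. A read counted at both of 2 precursors cannot exceed the smaller count. At most 1.29% to 1.93% of the reads at mir-148a or mir-148b, depending on the library, can therefore also have been counted at mir-152. The bound holds on that side only. All reads at mir-152 could also have been counted at mir-148a or mir-148b, and whether they were was not tested. For mir-148a and mir-148b no such bound helps, since nearly every read of either could be a read of the other. How many reads they shared was not tested, because the table holds no reads.

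Other related precursors give a scale for this closeness. Among 222 precursors with a RefSeq hairpin and a mean of at least 100 reads, 37 pairs had a mature arm that lay on the partner's hairpin with 2 mismatches at the closest. In the median library the smaller count was at least 90% of the larger in 6 of these 37 pairs, and mir-148a with mir-148b came closest of all, at 98.7%. The next, let-7c-2 with let-7f-1 and mir-34b with mir-34c, both stood at 91.8%. Of 30 pairs with an identical arm 28 reached 90%, with a median of 99.7%, and mir-148b with mir-152, also 2 mismatches apart, stood at 1.71%. Many of these pairs belong to the same few families and are not independent. The values of mir-148a and mir-148b are therefore both given below, but not read as separate measurements. Those of mir-152 are not shown to be separate from them either.

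**Figure D1:**
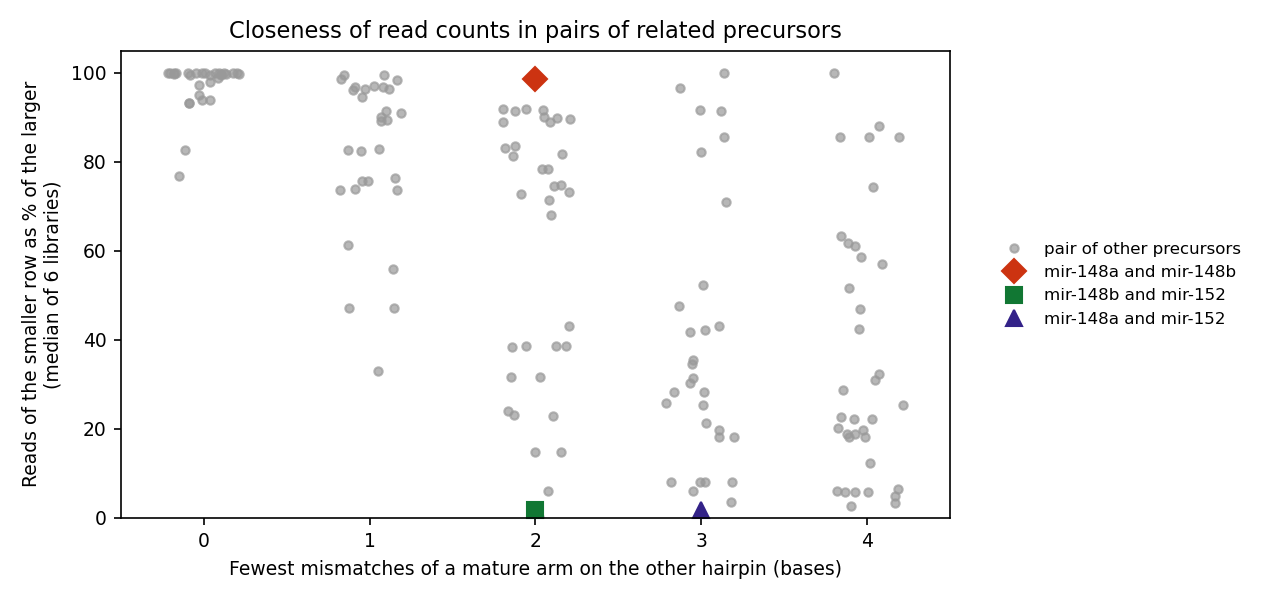
Each point is a pair of related precursors with a mean of at least 100 reads. The horizontal axis gives the fewest mismatches of a mature arm on the partner's hairpin, and the vertical axis the smaller read count as a percentage of the larger, as the median of 6 libraries. The mir-148a and mir-148b pair stands at 98.7%, and both pairs with mir-152 stand below 2%.

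In level the order was mir-148b, then mir-148a, then mir-152 in every library when expressed as RPKM. In control 1 to 3, mir-148a stood at 8044, 8392 and 10066 RPKM and in cKO 1 to 3 at 18055, 17006 and 17250 RPKM. All 3 cKO libraries lay above all 3 control libraries, as they did in 71.6% of the tested precursors, and control 3 was the highest of the controls. The values of mir-148b were 8364, 8468 and 10198 RPKM in control 1 to 3 and 18794, 17191 and 17353 RPKM in cKO 1 to 3. Its groups did not overlap either, and in each genotype its mean differed from that of mir-148a by less than the SD between libraries. The small lead of mir-148b over mir-148a in RPKM comes with its shorter hairpin: in reads mir-148b was ahead in control 1 and cKO 1 and behind in the other 4 libraries.

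The lowest member, mir-152, stood at 145, 205 and 229 RPKM in control 1 to 3 and at 316, 442 and 397 RPKM in cKO 1 to 3. The groups again did not overlap, with cKO above control as in 71.6% of the tested precursors, and replicate 1 was the lowest library of each genotype. Among the 855 precursors mir-148a and mir-148b ranked between 62 and 81 in the 6 libraries, and mir-152 between 242 and 260. By mean level mir-378b stood just above mir-148b and mir-186 just below mir-148a, and mir-199a-2 (289 RPKM) and mir-324 (286 RPKM) stood on either side of mir-152 (289 RPKM).

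**Figure D2:**
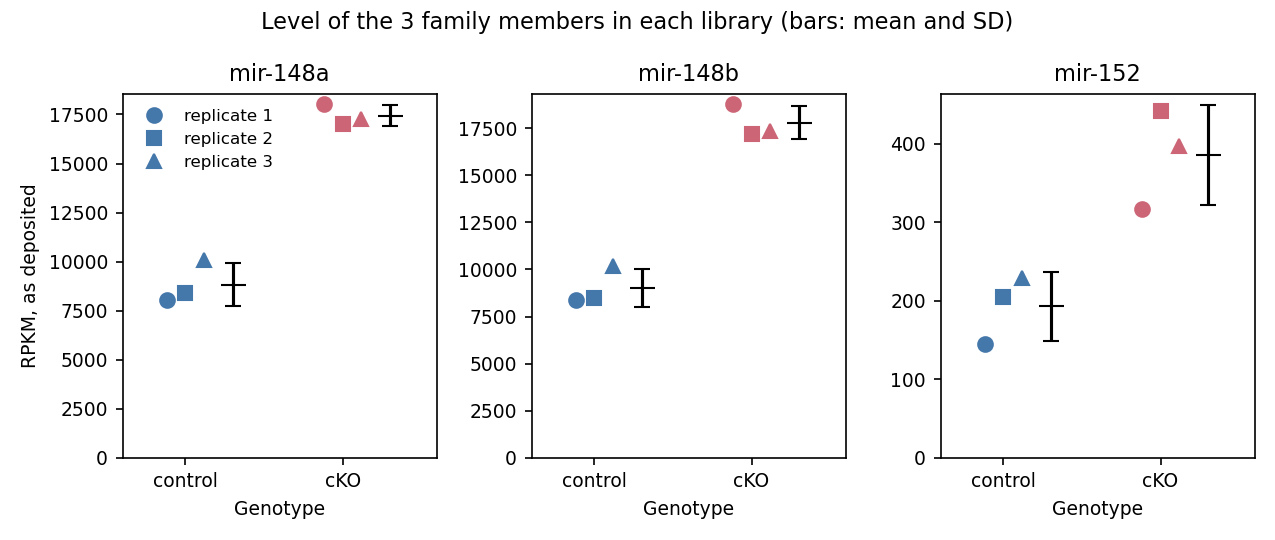
RPKM of mir-148a, mir-148b and mir-152 in each library, with the replicate number as the symbol and the mean and SD (n = 3) beside each genotype. In each panel the 3 cKO libraries lie above the 3 control libraries, as in 71.6% of the tested precursors. The axis of mir-152 is on a far smaller scale.

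As deposited, all 3 members rose in cKO retina, as did 69.4% of the tested precursors. The mean of mir-148a went from 8834 ± 1081 to 17437 ± 549 RPKM (SD, n = 3 each). This was 1.98-fold, or 0.99 on the log2 scale with an SE of 0.13 (limma, Benjamini-Hochberg adjusted p = 3.3e-04). The mean of mir-148b went from 9010 ± 1030 to 17780 ± 882 RPKM (SD, n = 3 each), again 0.99 on the log2 scale with an SE of 0.13 (limma, adjusted p = 3.3e-04). The mean of mir-152 went from 193 ± 43.3 to 385 ± 63.5 RPKM (SD, n = 3 each). This was 2.01-fold, or 1.01 on the log2 scale with an SE of 0.21 (limma, adjusted p = 0.0022). Each was higher in 3 of 3 cKO libraries than in any control library, as were 71.6% of the tested precursors.

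These rises have to be read against the whole table, in which 320 of 461 tested precursors rose and 8 (1.74%) fell. The median log2 fold change of all tested precursors was 0.74, so that mir-148a, mir-148b and mir-152 stood 0.25, 0.25 and 0.27 above it. Their folds exceeded those of 74.4%, 74.0% and 75.9% of the tested precursors. RPKM is relative to the total of each library, and the most abundant precursor mir-182, of photoreceptors and other sensory cells, took 54.7% ± 2.34 of library reads in the controls and 30.2% ± 3.22 in the cKO libraries (SD, n = 3 each). The members' values therefore do not show whether the family was higher or lower per retina.

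With median-of-ratios scaling, under which the middle precursor is held level across libraries, the rises were smaller and none passed. The log2 fold change was 0.26 (SE 0.11; limma adjusted p = 0.18) for mir-148a and 0.25 (SE 0.11; adjusted p = 0.19) for mir-148b. For mir-152 it was 0.28 (SE 0.18; adjusted p = 0.31). Unadjusted limma p was 0.047 for mir-148a, 0.052 for mir-148b and 0.14 for mir-152, so that 1 of the 3 was below 0.05. As mir-148a and mir-148b are not separate measurements, their p-values are not read apart. Limma voom on whole reads with this scaling likewise passed 0 after adjustment and 1 before it. How many of all tested precursors had an unadjusted p below 0.05 was not counted. On that scale mir-148a stood at 10928, 11078 and 12010 in control 1 to 3 and at 14615, 12692 and 13344 in cKO 1 to 3. The 3 cKO libraries still lay above the 3 control libraries for mir-148a and mir-148b, as in 15.2% of tested precursors, but not for mir-152, where cKO 1 (256) was below control 2 (270) and control 3 (273). Of all tested precursors 2.17% rose and 9.98% fell after this scaling. Totals without mir-182 ended the calls of all 3 members, at log2 fold changes of 0.36, 0.36 and 0.39 (adjusted p = 0.083, 0.087 and 0.17).

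**Figure D3:**
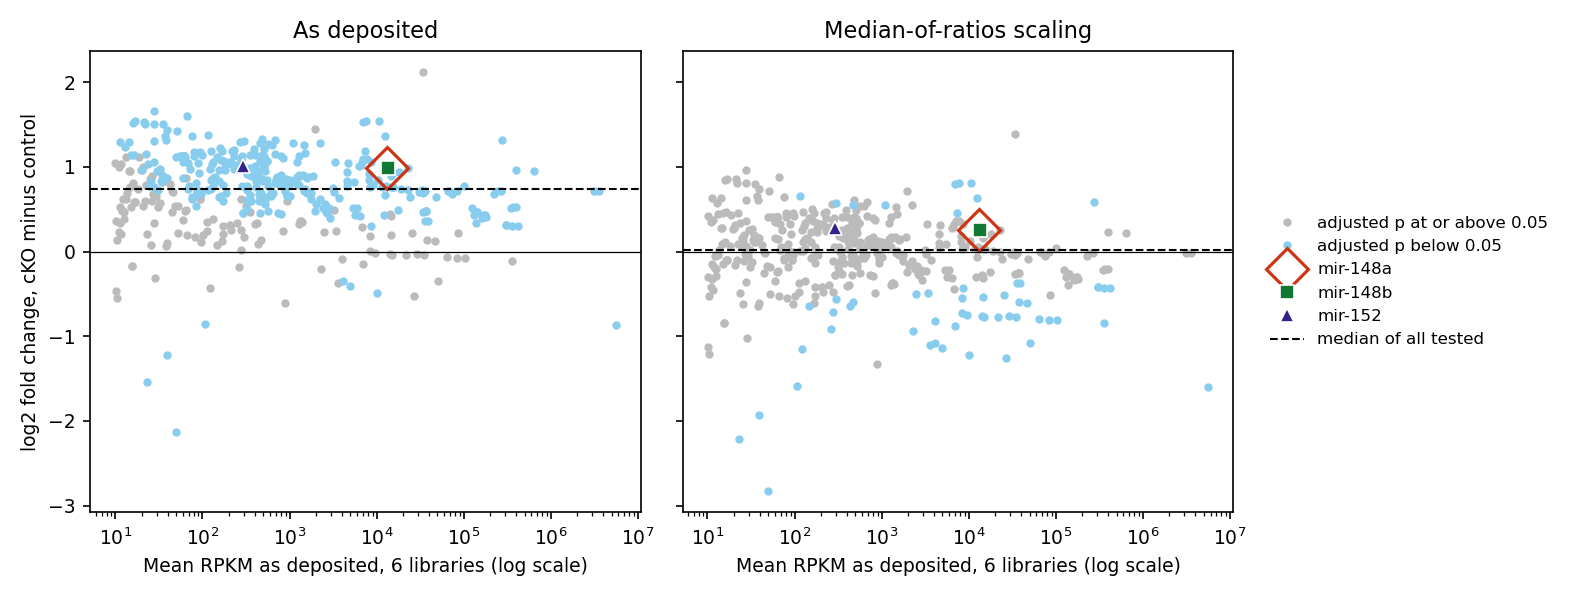
Log2 fold change (cKO minus control) of all 461 tested precursors against their mean RPKM on a log scale, as deposited and with median-of-ratios scaling. The large open diamond is mir-148a, the square inside it mir-148b and the triangle mir-152. The members lie above the dashed median of all tested precursors in both panels, by 0.25 to 0.27 as deposited and 0.24 to 0.26 after scaling.

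**Figure D4:**
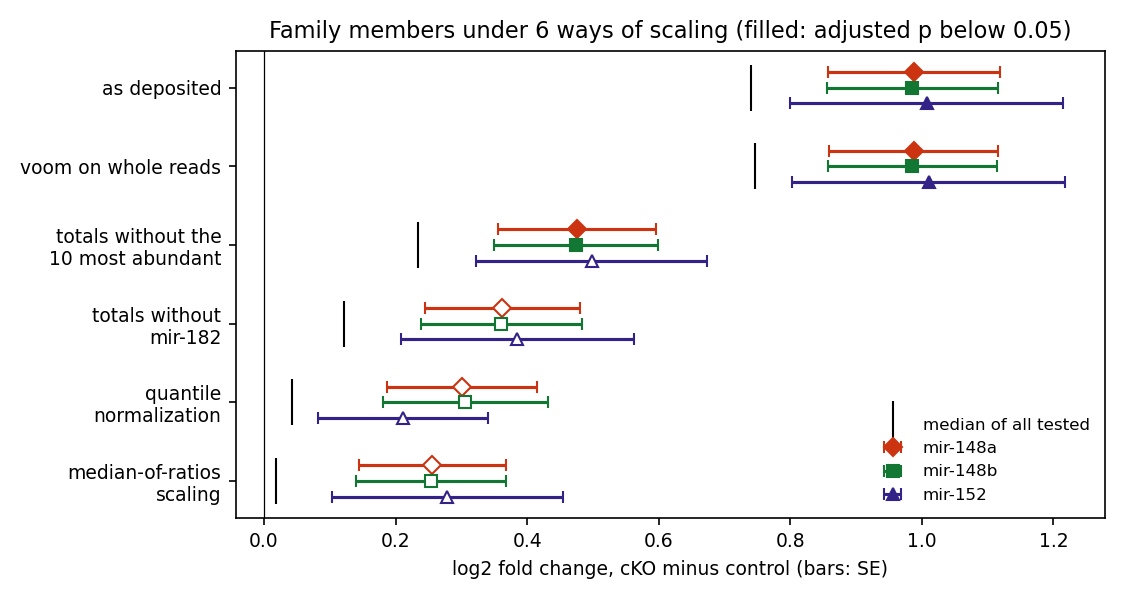
Log2 fold changes of the 3 members with their SE under 6 ways of scaling, with the median of all tested precursors as a vertical bar. Filled symbols passed an adjusted p of 0.05. The members and the median move to the left together, and the members stay to the right of the median.

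Ratios within a library do not depend on its total, and they showed no difference between the genotypes that 3 libraries against 3 could resolve. The mean log2 ratio of mir-148a to mir-152 was 5.53 ± 0.23 in the controls and 5.51 ± 0.29 in the cKO libraries (SD, n = 3 each), with p = 0.9 by an exact permutation test, two-sided. The difference was -0.020, and single cKO libraries differed from single control libraries by -0.52 to 0.48. For mir-148b to mir-152 the difference was -0.022, with a range of -0.56 to 0.52 (exact permutation p = 0.9). For mir-148a to mir-148b it was 0.0019, with a range of -0.045 to 0.048 (exact permutation p = 0.8). As mir-148a and mir-148b may hold the same reads, their ratio could not show an unequal change, and nothing is read from it. After adjustment over these 3 ratios each p was 0.9, and the smallest p that this design allows is 0.1. A p of this size does not show that the members changed alike. The ranges given are of single libraries and are not limits on the mean difference. With a smallest p of 0.1, no unequal change of mir-152 and its relatives could pass 0.05, whatever its size.

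The ratios differed more between libraries than between genotypes. The reads at mir-148a were 75.4, 55.6 and 59.6 times those at mir-152 in control 1 to 3, and 77.4, 52.2 and 58.9 times in cKO 1 to 3. Replicate 1 of both genotypes stood above the other libraries, and it also had the lowest ratio of mir-148a to mir-148b reads, at 0.982 in control 1 and 0.980 in cKO 1 against 1.01 in each of the other 4. Counting error alone gives a coefficient of variation of 6.70% to 11.3% for the 79 to 223 reads of mir-152 in a library, and the spread between its libraries was 22.5% in control and 16.5% in cKO retina. For mir-148a counting error was at most 1.32%, and the spread was 12.2% in control and 3.15% in cKO retina. The share of mir-152 in control 1 was 0.00106% of library reads (Wilson 95% interval 0.000848% to 0.00132%), and that in cKO 1 was 0.00231% (0.00198% to 0.00270%). Such intervals take in counting error alone: amplified reads that carry no molecular identifiers are not independent molecules.

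As a whole the family was a minor part of the retinal miRNA pool. Its 3 members summed to 0.0926% ± 0.0108 of summed RPKM in the controls and 0.158% ± 0.0103 in the cKO libraries (SD, n = 3 each), with p = 0.1 by an exact permutation test, the least that the design allows. Without mir-182 in the sum these shares were 0.148% ± 0.0148 and 0.193% ± 0.0184 (SD, n = 3 each; exact permutation p = 0.1). Reads counted at several precursors also raise the summed RPKM, and there were more of them in cKO retina. As a share of library reads the members summed to 0.176% ± 0.0209 and 0.348% ± 0.0135 (SD, n = 3 each; exact permutation p = 0.1). Any read counted at both mir-148a and mir-148b enters the sum of the members more than once in each of these shares. The number of distinct reads lay between 5728 and 12626 if all were shared and between 11494 and 25165 if none were. For the summed family it was 0.99 on the log2 scale with an SE of 0.13 (limma, adjusted p = 3.0e-04), and taking the mean of mir-148a and mir-148b in place of their sum gave 0.99 (adjusted p = 3.4e-04).

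Among precursors of at least 100 RPKM, those whose profile over the 6 libraries was most like that of mir-148a were mir-218-1, mir-218-2, mir-652, mir-216a and mir-342. Likeness was measured as the root mean square difference of log2 values, each centred on its own mean, and it was 0.073 for mir-218-1 and 0.093 for mir-342, with a median of 0.25 over the 303 precursors outside the family. The list for mir-148b held mir-218-1, mir-216a, mir-218-2, mir-652 and mir-369. The profiles of mir-148a and mir-148b differed from each other by 0.021, and from that of mir-152 by 0.21 and 0.23. The nearest profiles to mir-152 were those of let-7k (0.10), mir-370, mir-381, mir-5105 and mir-451b (0.13), so that its family relatives were not among them. Of these, mir-369, mir-370 and mir-381 come from the imprinted Dlk1-Dio3 region. All profiles come from the same 6 libraries and share their totals.

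The miR-29 family, also known to act on DNA methyltransferase mRNAs, did not pass: 0 of its 4 tested precursors rose or fell (limma, adjusted p = 0.068 to 0.11). Among all tested precursors 69.4% rose and 1.74% fell. Of the miR-29 precursors 0 had an unadjusted p below 0.05. With limma voom on whole reads 0 passed after adjustment and 1 before it. Their median log2 fold change was 0.47, below the 0.74 of all tested precursors. The most abundant, mir-29c, had a mean of 12633 ± 2971 RPKM in the controls and 16679 ± 2889 RPKM in the cKO libraries (SD, n = 3 each), and its groups overlapped. With median-of-ratios scaling the miR-29 median was -0.26, and again 0 passed, adjusted or not, where 2.17% of all tested precursors rose and 9.98% fell. The 4 miR-29 precursors are not read as separate measurements. In the median library the smaller read count was 99.7% of the larger for mir-29b-1 with mir-29b-2, and 97.1% for mir-29a with mir-29c. Whether mir-148a and mir-29c differed in their change was not tested.

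Of the markers of the tissue and of other cells that a dissected retina can hold, 0 were listed at 0 in every library. The sensory precursors mir-182, mir-183 and mir-96 ranked 1 to 3, 4 to 17 and 60 to 101 among the 855 precursors. As deposited mir-182 and mir-96 fell (limma), where 1.74% of all tested precursors did. With median-of-ratios scaling all 3 fell, where 9.98% of all tested precursors did. As deposited, 3 of 3 vascular, 2 of 3 red cell, 2 of 2 tested leukocyte and microglial, 2 of 2 pigment epithelial and 1 of 8 tested epithelial, lens and cornea precursors rose, where 69.4% of all tested precursors did. With median-of-ratios scaling 1 of the 3 vascular precursors, mir-126, rose, and in each of the other 4 lists 0 did (limma), where 2.17% of all tested precursors did. In those 4 lists the 2 pigment epithelial precursors, and 0 of the others, had an unadjusted p below 0.05 with that scaling. The share of all tested precursors below it was not counted. Between the 2 pigment epithelial precursors the smaller read count was 96.9% of the larger in the median library, so they are not read as separate measurements. Their summed RPKM was 655315 to 758334 in control and 1.20e+06 to 1.48e+06 in cKO retina. Which cells of the pools these reads came from was not tested. Summed RPKM of the vascular markers was 18667 to 34997 in control and 41036 to 54676 in cKO retina, and that of the leukocyte and microglial markers 2076 to 2558 and 3712 to 5613. The epithelial, lens and cornea markers summed to 2933 to 54822 RPKM in the controls and to 25993 to 64245 RPKM in the cKO libraries. The part of these cells in the members' values was not tested.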

How the data were processed

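Per the labels' protocols, 1 µg of RNA entered each library, which was built with a kit that ligates adapters to small RNA, amplified over 11 PCR rounds, size-selected on a gel and sequenced in a shared single-end run of 50 bases. The authors deposited RPKM values per precursor. Bowtie and mm9 come from the submitters' processing notes; the Bowtie version, annotation, mismatches allowed and handling of reads with several matches are unknown: not given in the sources used here. RPKM times hairpin length was a whole multiple of 1 step per library in 100% of 2388 values above 0 (tolerance 0.01 reads, 639 precursors with a RefSeq hairpin). The shortest length that gave whole reads was used for 140 other tested precursors, a rule that returned the RefSeq length in 321 of 321.

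The values as log2(RPKM + 1) were fitted by limma 3.58.1 (R 4.3.3; eBayes with a trend), two-sided and with no further scaling, with p adjusted over 461 precursors with a threshold of 0.05. This scale understates changes of low precursors. On whole reads limma voom called 323 up and 8 down. Ratios and shares were tested by exact permutation of libraries (scipy 1.17.1). The fit was also run on simulated data in which mir-182 did not change. That run cannot show how the fit behaves with the fall in the share of mir-182 seen here. Whether replicate numbers pair the libraries is not known. Deviations from the group means correlated at 0.19, 0.26 and 0.0093 for same-numbered libraries of the 2 genotypes. For libraries with unlike numbers the correlations were -0.22 to 0.048.

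The members and lists were chosen with earlier results of these data known. The naming rule took the members, mir-182, the miR-29 precursors, and the 5 nearest profiles and the neighbours in level of each member; marker lists are given as counts and summed RPKM. Named after their values were seen are mir-183, mir-96, mir-126, the let-7 and mir-34 pairs close in reads, the precursors with the shifted heptamer, and mir-301b.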

Additional observations from a re-analysis of the deposited data

How the results depend on the processing

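The members kept their direction in every alternative tried, and their calls depended on the scaling. For mir-148a, mir-148b and mir-152 the log2 fold changes that no longer passed were 0.26, 0.25 and 0.28 with median-of-ratios scaling, 0.30, 0.31 and 0.21 with quantile normalization, 0.36, 0.36 and 0.39 with totals without mir-182, and 0.26, 0.25 and 0.28 with voom and median-of-ratios scaling. With totals without the 10 most abundant precursors only mir-152 did not pass, at 0.50. The call of the summed family ended at 0.26 under median-of-ratios scaling and 0.36 under totals without mir-182. Leaving out 1 library at a time kept all 3 calls, with log2 fold changes of 0.92 to 1.09 for mir-148a, 0.93 to 1.08 for mir-148b and 0.82 to 1.14 for mir-152. With median-of-ratios scaling, alternatives chosen after seeing the data, they were 0.20 to 0.31, 0.18 to 0.30 and 0.14 to 0.38, and none passed. The cause was not tested.

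The ratios had no call to lose and changed sign easily. For mir-148a to mir-148b the difference was -0.0044 with quantile normalization and ran from -0.012 to 0.017 over the fits without 1 library. For mir-148a to mir-152 it was 0.013 with a pseudocount of 10 RPKM, 0.090 with quantile normalization and -0.18 to 0.11 without 1 library. For mir-148b to mir-152 it was 0.011, 0.095 and -0.20 to 0.12.

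The numbers that rose and fell were 320 and 8 as deposited, 10 and 46 with median-of-ratios scaling, 12 and 29 with quantile normalization, 57 and 29 with totals without the 10 most abundant precursors, 20 and 36 with totals without mir-182, and 9 and 46 with voom and median-of-ratios scaling. The number that fell was 4 when only precursors averaging 100 RPKM or more were tested, and 14 under array weights. Without 1 library it ran from 4 to 12, and the number that rose from 252 to 322. With median-of-ratios scaling and 1 library left out 3 to 15 rose and 28 to 47 fell.

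The replicate block changed no call as deposited: adjusted p was 3.9e-04 for mir-148a, 4.0e-04 for mir-148b and 5.7e-04 for mir-152, and 338 rose and 10 fell. With median-of-ratios scaling and the replicate block the members stood at 0.26, 0.25 and 0.28 and did not pass, and 16 rose and 46 fell. The numbers are not shown to pair the libraries. At 79 to 223 reads in a library, counting error limits what can be said of mir-152.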

Other observations

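The heptamer of the family seed also occurs in other miRNAs, moved by a single base. Precursors with CAGUGCA at bases 1 to 7 of a mature arm in the RefSeq table were looked up after the members' values were seen. This search found 7 in the table, of which mir-130c, mir-6389 and mir-721 were listed at 0 in every library and mir-6341 reached at most 2.39 RPKM. The remaining 3 were mir-130a, mir-130b and mir-301a, and their RefSeq sequences (GRCm38.p6) are shown with bases 1 to 7 in capitals:
miR-130a-3p: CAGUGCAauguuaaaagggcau
miR-130b-3p: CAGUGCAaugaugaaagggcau
miR-301a-3p: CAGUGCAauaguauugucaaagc
In control 1 to 3 mir-130a stood at 10190, 8828 and 11659 RPKM and in cKO 1 to 3 at 16492, 19918 and 20261 RPKM. The values of mir-130b were 6265, 4820 and 6162 RPKM in control and 9498, 11323 and 11514 RPKM in cKO retina. Those of mir-301a were 4957, 5810 and 5620 RPKM in control and 8082, 7035 and 6882 RPKM in cKO retina. In each of the 3, the cKO libraries lay above the controls, as they did in 71.6% of the tested precursors. As deposited mir-130a and mir-130b rose 1.85- and 1.88-fold (limma adjusted p = 9.0e-04 each) and mir-301a 1.34-fold (adjusted p = 0.018), in a table where 69.4% of tested precursors rose. With median-of-ratios scaling the log2 fold changes of mir-130a and mir-130b were 0.16 and 0.18 (adjusted p = 0.45 and 0.44), that of mir-301a was -0.31 (adjusted p = 0.18), and those of the members were 0.26, 0.25 and 0.28 (mir-148a, mir-148b and mir-152). The smaller read count of mir-130a and mir-130b was 72.8% of the larger in the median library, and whether they shared reads was not tested. Listed precursors without a RefSeq sequence could not be found by this search, so that others may carry the heptamer. The tested precursor mir-301b was not found by it. With median-of-ratios scaling its log2 fold change was -0.31 (limma adjusted p = 0.18), close to that of mir-301a. Whether mir-301b and mir-301a shared reads was not tested.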
